A study of Arabidopsis thaliana with 34 samples.

Results

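Iron genes of Arabidopsis thaliana, 10 in all, were followed in shoots under low oxygen and nitric oxide: 9 genes known to respond to iron deficiency and FER1, a ferritin. They were taken by locus from the probe annotation and make up 10 of the 24531 genes with a named probe. The 9 are IMA1 (AT1G47400), IMA3 (AT2G30766), BHLH38 (AT3G56970), BHLH39 (AT3G56980), BHLH100 (AT2G41240), BHLH101 (AT5G04150), PYE (AT3G47640), BTS (AT3G18290) and FRO3 (AT1G23020), and FER1 is AT5G01600. All 10 had a probe, 12 probe rows in all, and 11 of the 12 rows had a value in at least 1 comparison. BHLH101 and FER1 have 2 probes each, here called the RefSeq probe and the GenBank probe after the kind of record that names each. The GenBank probe of BHLH101 had no value anywhere, so every BHLH101 value below comes from the RefSeq probe.

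In Arabidopsis, shortage of iron is relayed by a chain of regulators. IMA1 and IMA3 encode small peptides, also known as IRON MAN or FEP peptides, that bind iron and hold back BRUTUS (BTS), an E3 ubiquitin ligase that targets basic helix-loop-helix (bHLH) factors of the iron response for degradation. Those factors switch on the subgroup Ib bHLH genes BHLH38, BHLH39, BHLH100 and BHLH101, whose products act with FIT in roots to raise iron uptake, and POPEYE (PYE), a bHLH repressor of iron storage and transport genes. FRO3 encodes a ferric reductase of mitochondria. FER1 encodes a plastid ferritin, an iron store whose transcript is known to rise with iron excess and to be low in iron-poor plants. In leaves the IMA, subgroup Ib, PYE and BTS transcripts are commonly used as markers of a plant's iron state.

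The plants were 16 days old, in the Landsberg background, and of 3 lines: C13, which makes Vitreoscilla haemoglobin, a bacterial oxygen-binding protein, in the cytoplasm, Mt62, which makes it in mitochondria, and the wild type, WT. Each transgene is represented by 1 line, and the labels do not name its promoter. Plates were sealed in bags with an oxygen absorber to reach 4% oxygen (hypoxia) or received 500 µM DETA, a donor of nitric oxide, each for 2 or 24 h, and untreated plants were taken at 0, 2 and 24 h. These make 21 groups, of which 18 have 4 array channels and 3 have 3 channels (C13 hypoxia 2 h, Mt62 control 0 h and WT DETA 2 h). All plants grew on the same sucrose-containing agar medium, and no group had its iron supply changed.

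The authors' deposited table holds no level per plant or channel. Its 34 columns are log fold changes between groups, first group minus second, taken here as log2, and a value is listed only where the authors' empirical Bayes test gave a p of at most 0.01. "Rose", "fell", "higher" and "lower" are used below for listed values. The table gives no standard deviation and no level of any gene, so the tissue label could not be checked against absolute marker levels. An upper bound on the standard error of a row was read from its smallest listed value, and p-values computed from that bound were adjusted by Benjamini and Hochberg over all 34498 probe rows; they are printed as "adjusted p at most" and are upper limits under that bound. A difference that is not listed is smaller in size than a limit that follows from the same bound, which does not show that it is 0. By this construction a row's smallest listed value gets a p just above 0.01 from the bound. Where few genes are listed, such a value, or one close to it, cannot pass the adjustment. Its failure to pass there does not speak against a change. The columns share control groups: hypoxia and DETA of 1 line and time are set against the same untreated plants. In bulk shoots, fewer cells of a type and less RNA per cell cannot be told apart.

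**Figure D1:**
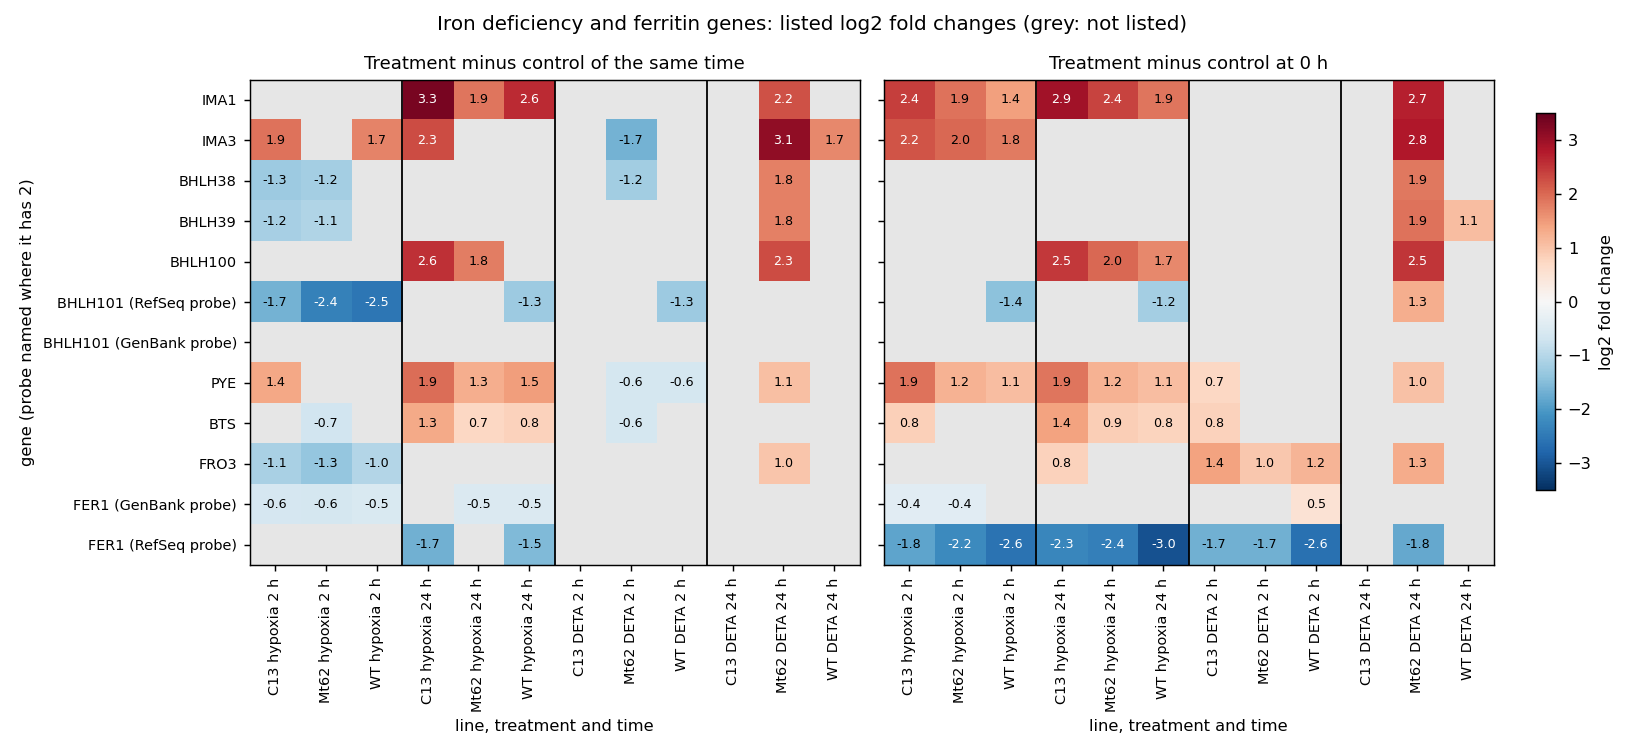
Listed log2 fold changes of the iron genes in 24 comparisons, each cell with its value to 1 decimal and grey where none is listed. Left, each treatment minus the control of the same line and time; right, the same treatments minus the control at 0 h; within each block the lines run C13, Mt62, WT. The Mt62 DETA 24 h column is the one 24 h DETA column with more than 1 listed gene on either side, with IMA3 at 3.10 on the left.

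The broadest change relative to the rest of the array was in Mt62 after 24 h of DETA. Against the Mt62 control at 24 h, 7 of the 10 genes rose and 0 fell, where 6.04% of all genes were listed in either direction. The corresponding counts were 0 of 10 in C13, where 7.88% of all genes were listed, and 1 of 10 in WT, where 11.1% were listed. The 7 genes were both IMA peptide genes, 3 of the 4 subgroup Ib bHLH genes, PYE and FRO3, with a median of 1.77 on the log2 scale, against a median size of 0.62 over the 1481 genes listed there. The members were chosen with earlier results of these data known, so their share beside that of all genes is a description.

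Among the peptide genes, IMA3 rose by 3.10 in Mt62 (standard error at most 0.64, adjusted p at most 0.00195), a fold change of 8.55. This was the highest value of the 667 genes that rose in that comparison. IMA3 was also listed in WT, at 1.68, a value that did not pass the adjustment (adjusted p at most 0.131). That value is close to the row's smallest listed one, 1.66 in size, so the bound left it little room to pass. In C13 IMA3 was not listed and so lay under 1.71 in size. IMA1 rose by 2.22 in Mt62 (standard error at most 0.52, adjusted p at most 0.00805), a fold change of 4.66 and the rank of 8 among the genes that rose. In C13 and in WT IMA1 was not listed and lay under 1.39.

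Of the subgroup Ib factors, BHLH100 rose by 2.29 in Mt62 (standard error at most 0.65, adjusted p at most 0.0468), ranking 6 among the genes that rose. BHLH38 and BHLH39, which are neighbours on the chromosome, rose by 1.77 and 1.76 (adjusted p at most 0.0237 and 0.00776), each a fold change of about 3.4. None of these 3 was listed in C13 or WT. The limits there were 1.73 for BHLH100, 1.23 for BHLH38 and 1.09 for BHLH39. BHLH101 was not listed in any line against the 24 h control, with a limit of 1.21.

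PYE rose by 1.06 in Mt62 (standard error at most 0.22, adjusted p at most 0.00185), a fold change of 2.09, and lay under 0.59 in C13 and WT. FRO3 rose by 0.98 in Mt62, and this was the 1 value of the 7 that did not pass the adjustment (adjusted p at most 0.104). BTS, the ligase the peptides hold back, was not listed in any line at 24 h of DETA and lay under 0.63 in each. FER1 was not listed against the 24 h control in any line with either probe.

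**Figure D2:**
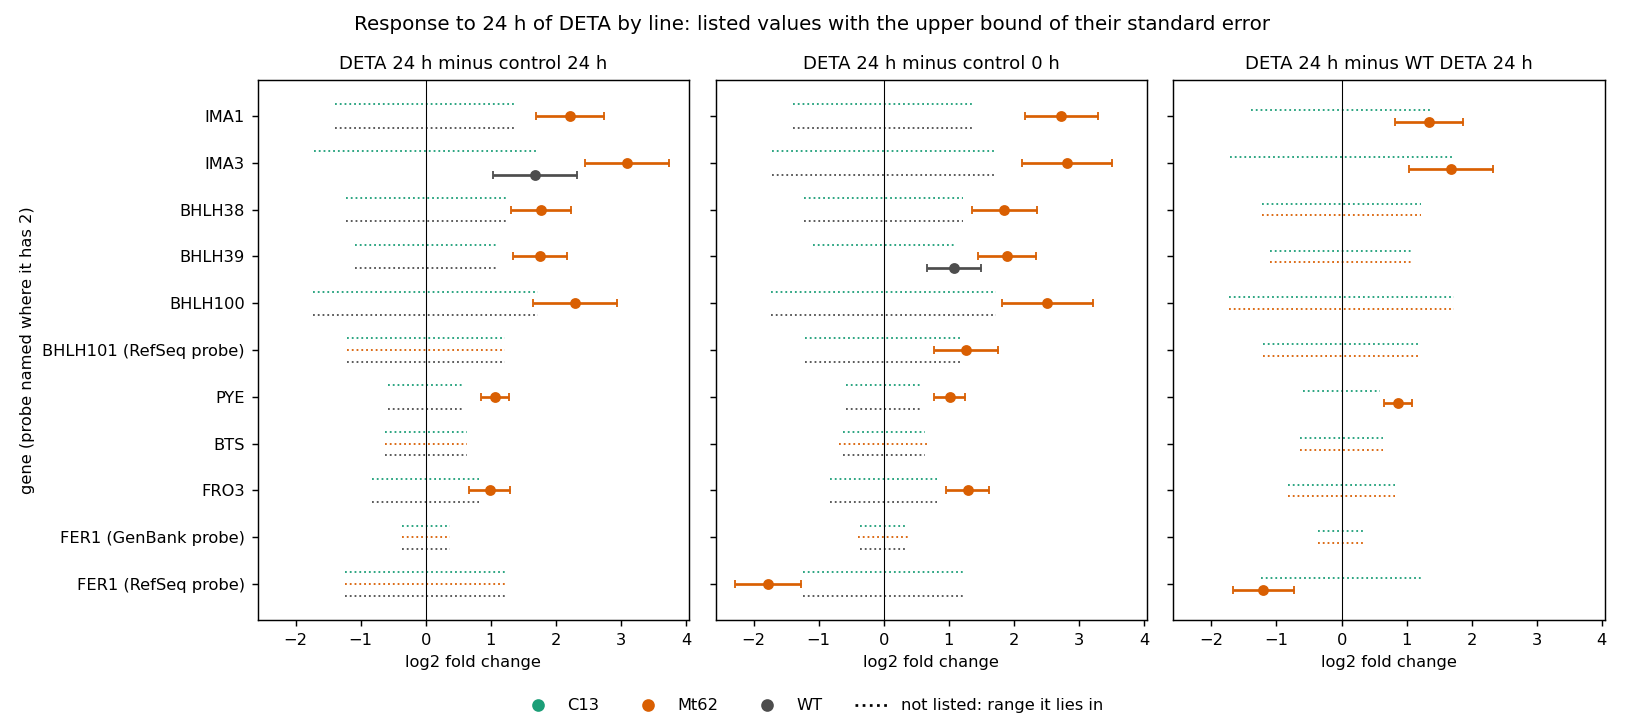
Response to 24 h of DETA in C13, Mt62 and WT, as log2 fold change against the 24 h control, against the 0 h control, and for the transgenic lines against WT given DETA for 24 h. Points are listed values, bars the upper bound of the standard error to either side, and dotted lines the range in which a value that is not listed must lie. IMA3 of Mt62 stands at 3.10 in the left panel and FER1 at -1.78 in the middle panel; most C13 and WT values appear only as dotted ranges.

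Against the control at 0 h the same plants gave 8 genes higher and 1 lower in Mt62, 0 in C13 and 1 higher in WT. The share of all genes listed was 3.42% in Mt62, 3.05% in C13 and 2.78% in WT. In Mt62, IMA3 was higher by 2.81, IMA1 by 2.73 and BHLH100 by 2.51, which ranked 2, 3 and 8 of the 450 genes that were higher. BHLH39 and BHLH38 followed at 1.90 and 1.85, FRO3 at 1.29, BHLH101 at 1.27 and PYE at 1.01. FER1 was lower, at -1.78 with its RefSeq probe, the fifth of the 390 genes that were lower. After adjustment IMA1, IMA3, BHLH39 and PYE passed (adjusted p at most 0.00963, 0.0496, 0.032 and 0.0327), and the other 5 did not, with BHLH100 at most 0.115 and FER1 at most 0.122. The single WT gene was BHLH39, at 1.08 (adjusted p at most 0.506).

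Because the columns are differences of 1 set of group means, the change of the Mt62 control from 0 to 24 h could be computed for 8 of the members. The values ran from -0.28 for IMA3 to 0.51 for IMA1, and none passed the adjustment. It can be computed only for genes with listed values that link both controls. For the 7 genes that rose against the 24 h control, the Mt62 DETA values are therefore of similar size against both controls. BHLH101 and FER1 are left out of this: they were listed against 0 h, at 1.27 and -1.78 (RefSeq probe), and not against the 24 h control. The 2 sets of values share the DETA plants and are not independent.

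Set directly against WT given DETA for 24 h, Mt62 had higher IMA3 by 1.68, IMA1 by 1.35 and PYE by 0.87, and lower FER1 (RefSeq probe), at -1.20. In that comparison 3.73% of all genes were listed, and IMA3 ranked 4 and IMA1 ranked 8 among the genes that were higher. None of the 4 passed the adjustment: it was at most 0.0544 for PYE and at most 0.398 for the others. For IMA1 and FER1 these are the smallest listed values of their rows, and that of IMA3 is close to its smallest, 1.66 in size. Under the bound these 3 could not pass here, so their failure does not speak against a difference. IMA3 was the one member whose response to 24 h of DETA, against the 24 h control, could be computed in both lines. It was larger in Mt62 than in WT by 1.42 (standard error at most 0.91, adjusted p at most 0.584), a difference that did not pass the test. Against 0 h the same could be done for BHLH39, whose value in Mt62 exceeded that in WT by 0.82 (standard error at most 0.60, adjusted p at most 0.627). The rise of the other genes is thus shown within Mt62, and a difference of their response from that of WT or C13 was not tested, since their C13 and WT values are not listed.

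In the other 9 comparisons between a transgenic line and WT, 0 members were listed by the authors' test, so none had an unadjusted p under 0.01. This held for untreated plants at 0 h, where 2.78% of all genes were listed for C13 and 0.775% for Mt62. It held for C13 after hypoxia of 2 h (1.62%) and 24 h (2.94%), and after DETA of 2 h (2.6%) and 24 h (2.94%). It also held for Mt62 after hypoxia of 2 h (1.23%) and 24 h (4.3%) and after DETA of 2 h (1.32%). With shares this small, 0 listed members is near the share of all genes in each comparison. The counts therefore do not set the members apart from the rest of the array. Differences of some size also remain possible. Depending on channel numbers, IMA1 lay under 1.39 or 1.50 in size and IMA3 under 1.71 or 1.85.

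**Figure D3:**
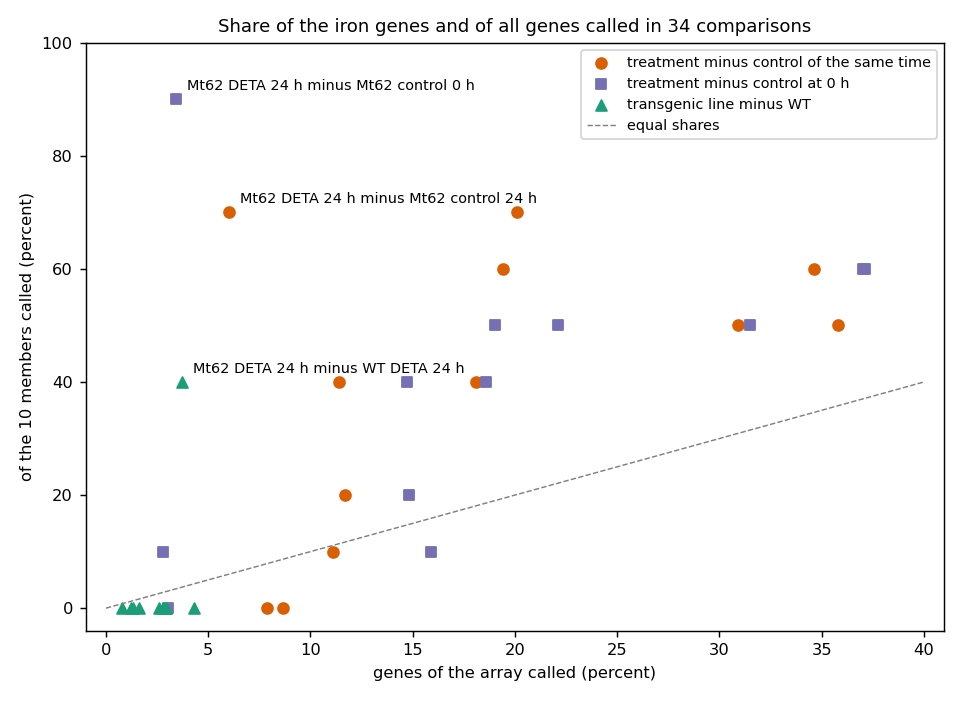
Share of the 10 iron genes listed (vertical axis, percent) against the share of all genes of the array listed (horizontal axis, percent) in each of the 34 comparisons, by kind of comparison. The dashed line marks equal shares; the 3 named points are those of Mt62 after 24 h of DETA, where 90%, 70% and 40% of the members were listed against 3.42%, 6.04% and 3.73% of all genes.

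Hypoxia of 24 h moved the same genes in part, on a background where about 1 gene in 3 was listed. Compared with untreated plants at 24 h, 5 members rose and 1 fell in C13 (34.6% of all genes listed), 4 rose and 1 fell in Mt62 (30.9%), and 3 rose and 2 fell in WT (35.8%). IMA1, PYE and BTS rose in all 3 lines. In C13 the median of the 6 listed members was 2.11, against a median size of 0.78 over the 8484 genes listed.

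IMA1 rose by 3.32 in C13, 1.86 in Mt62 and 2.60 in WT (adjusted p at most 7.81e-07, 0.00462 and 6.09e-05). The C13 value, a fold change of 9.96, was the highest of any member in any of the 34 comparisons. IMA3 was listed in C13 alone, at 2.27, with limits of 1.71 in the other lines, and was not listed against 0 h in any line after 24 h of hypoxia. BHLH100 rose by 2.55 in C13 and 1.79 in Mt62 and was not listed in WT, where it lay under 1.73. BHLH38 and BHLH39 were not listed in any line at 24 h of hypoxia, and BHLH101 was listed in WT, at -1.27. At this time BHLH100 was the one subgroup Ib gene listed as higher, and after 24 h of DETA in Mt62 3 of them were. A difference between the 2 treatments was not tested.

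PYE rose by 1.95 in C13, 1.27 in Mt62 and 1.47 in WT, and BTS by 1.33, 0.72 and 0.82 in the same order of lines. All 6 values passed the adjustment, BTS in Mt62 least clearly (adjusted p at most 0.0178). The ligase gene BTS, which was not listed after 24 h of DETA, thus rose here together with IMA1 and PYE. FRO3 was not listed in any line. FER1 fell in each line with at least 1 probe: the RefSeq probe gave -1.69 in C13 and -1.55 in WT, and the GenBank probe gave -0.50 in Mt62 and -0.51 in WT.

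Against the control at 0 h, 24 h of hypoxia gave 5 members higher and 1 lower in C13 (37% of all genes listed), 4 higher and 1 lower in Mt62 (31.5%), and 4 higher and 2 lower in WT (37.1%). IMA1 was higher by 2.95, 2.37 and 1.87 in C13, Mt62 and WT, BHLH100 by 2.47, 2.01 and 1.68, PYE by 1.88, 1.22 and 1.09, and BTS by 1.42, 0.85 and 0.77. For each of these 4 genes the value was highest in C13 and lowest in WT, an order that depends on the control: against the 24 h control IMA1, PYE and BTS were lowest in Mt62. No difference between a transgenic line and WT in the response of a member to hypoxia passed the test, as for PYE in C13 at 24 h, where it was 0.79 (standard error at most 0.31, adjusted p at most 0.907).

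After 2 h of hypoxia BHLH101, FRO3 and FER1 were lower than in the 2 h control in all 3 lines, and the other members were listed in 2 lines at most. In that comparison 2 members rose and 5 fell in C13 (20.1% of all genes listed), 0 rose and 6 fell in Mt62 (19.4%), and 1 rose and 3 fell in WT (18.1%). BHLH101 fell, at -1.65 in C13, -2.37 in Mt62 and -2.54 in WT, and all 3 values passed the adjustment. In WT it ranked 27 among the 2432 genes that fell. BHLH38 and BHLH39 were listed at -1.28 and -1.17 in C13 and at -1.19 and -1.06 in Mt62, and none of these 4 values passed (adjusted p at most 0.0712 in C13 and 0.0747 in Mt62). BHLH100 was not listed. IMA3 was listed at 1.90 in C13 and 1.74 in WT, with adjusted p at most 0.069 and 0.0724.

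FRO3 fell in all 3 lines, at -1.13 in C13, -1.35 in Mt62 and -1.03 in WT, with adjusted p at most 0.0169, 0.00115 and 0.0187. FER1 also fell in all 3 with the GenBank probe, at -0.58, -0.60 and -0.53 in the same order of lines, while the RefSeq probe was not listed and lay under 1.34 in C13 and under 1.24 in Mt62 and WT. PYE was listed in C13 and in no other line, at 1.35 (adjusted p at most 2.36e-05). BTS was listed in Mt62 and in no other line, at -0.68 (adjusted p at most 0.0466).

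Against the control at 0 h the balance of the same hypoxic plants turned: the median of the listed members was 1.91 in C13, 1.56 in Mt62 and 1.09 in WT, where it was -1.13, -1.13 and -0.78 against the 2 h control. There 4 members were higher and 1 lower in C13 (22.1% of all genes listed), 3 higher and 1 lower in Mt62 (18.6%), and 3 higher and 2 lower in WT (19%). IMA1 was higher by 2.42 in C13, 1.91 in Mt62 and 1.44 in WT, IMA3 by 2.20, 2.00 and 1.82, and PYE by 1.91, 1.21 and 1.09. Of these, IMA1 in all 3 lines, IMA3 in Mt62 and PYE in Mt62 and WT were not listed against the 2 h control. Each of these values exceeded the limit there, so under the bound the untreated 2 h estimate itself lay above that at 0 h. That change was not tested. Where it could be computed, it was 0.56 for PYE in C13 (adjusted p at most 0.0852), and for IMA3 0.29 in C13 and 0.08 in WT. FER1 with the RefSeq probe was lower, at -1.84, -2.22 and -2.58. The falls of FRO3, BHLH38 and BHLH39 were not listed against 0 h in any line, and that of BHLH101 was listed in WT and in no other line, at -1.43. In WT the 2 h control had BHLH101 higher than the 0 h control by 1.11 (standard error at most 0.46), a change that did not pass the test (adjusted p at most 0.0879).

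Against the 2 h control, the members listed after DETA of 2 h all went down. No member was listed in C13, where 8.65% of all genes were listed. In Mt62, with 11.4% of all genes listed, 4 of 10 members were listed. IMA3 stood at -1.66, BHLH38 at -1.23, PYE at -0.61 and BTS at -0.61. In WT, with 11.7% listed, BHLH101 stood at -1.27 and PYE at -0.61, so that 2 of 10 members were listed. None of the 6 values passed the adjustment (adjusted p at most 0.107 for PYE in Mt62 and 0.127 or 0.123 for the others). Each is at or close to the smallest listed value of its row, so the bound left little room to pass. In Mt62, IMA3, BHLH38 and PYE were thus listed as lower after 2 h of DETA and as higher after 24 h.

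Against 0 h, 2 h of DETA gave 3 members higher and 1 lower in C13 (14.7% of all genes listed), 1 higher and 1 lower in Mt62 (14.8%), and 1 higher in WT (15.9%). The ferric reductase gene FRO3 was higher in all 3 lines, by 1.41 in C13, 0.95 in Mt62 and 1.19 in WT. Against the 2 h control it was not listed in any line. Each value against 0 h exceeded the limit there, so under the bound the FRO3 estimate for the untreated 2 h control lay above that at 0 h. Whether that change exceeded its error was not tested. The falls of FRO3 after 2 h of hypoxia were taken against that same 2 h control. PYE and BTS were higher in C13, by 0.71 and 0.82, and neither was listed against the 2 h control. For PYE the C13 control changed by 0.56 from 0 to 2 h (adjusted p at most 0.0852), and DETA minus the 2 h control was 0.16. The BTS value exceeded its limit against the 2 h control, so under the bound the untreated estimate for BTS also lay above that at 0 h.

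FER1 had the largest drop of any member, against 0 h, and its probes differed. Against the control of the same time the largest drop was that of BHLH101, at -2.54 in WT after 2 h of hypoxia, and FER1 reached -1.69. The RefSeq probe was listed in 13 of the 34 comparisons, all negative, and the GenBank probe in 8, of which 7 were negative. Against 0 h the RefSeq probe stood at -2.28 in C13, -2.40 in Mt62 and -3.05 in WT after 24 h of hypoxia, and at -1.68, -1.69 and -2.60 after 2 h of DETA. The WT value of -3.05 is a fold change of 0.121. In WT after 2 h of DETA the probes had opposite signs, -2.60 for the RefSeq probe and 0.51 for the GenBank probe, and FER1 was counted neither as higher nor as lower there. Which of the probes follows the ferritin transcript more closely was not tested.

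A change with time was present in untreated WT plants. The RefSeq probe of FER1 was lower in the WT control at 24 h than in that at 0 h, at -1.50 on the log2 scale (standard error at most 0.47, adjusted p at most 0.0216). This was the one change of an untreated control that passed the test among those that could be computed for the members. The same change in C13 was -0.59 (adjusted p at most 0.693). For Mt62 at 24 h, and for all lines at 2 h, the size of the untreated control's change could not be computed for this probe. Its direction follows from the limits. Each treated value against 0 h was larger in size than the limit against the control of that time, as for WT after 2 h of hypoxia, at -2.58. Under the bound, the estimate for the untreated control thus lay below that at 0 h in each case. Whether that change exceeded its error was not tested. How much of those FER1 values against 0 h belongs to time and how much to treatment could not be computed. Against the control of the same time the RefSeq probe was listed in C13 and WT after 24 h of hypoxia and for no other treatment, time or line.

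Across all 34 columns the members differed in how often and in which direction they were listed. PYE was listed in 16 columns, of which 14 were positive, and IMA1 was positive in all of its 12. IMA3 was positive in 10 of 11 and BTS in 8 of 10. BHLH100 was positive in all of its 7 columns, whereas BHLH101, of the same subgroup, was negative in 7 of 8. BHLH38 and BHLH39 were listed in 5 columns each. FRO3 was positive in 6 of 9, the negative ones being those of 2 h of hypoxia.

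Likeness between genes was measured as the number of columns in which both were listed with the same sign, as a share of the columns in which either was listed. The columns share groups, so this is a description. Among the members, IMA1 and PYE were closest, sharing 12 of 16 columns (75%). PYE and BTS shared 52.9%, and IMA1 and IMA3 43.8%. IMA1 and BHLH101 shared 6.25%. Outside the members, AT3G14200 was nearest to both IMA1 (75%) and IMA3 (58.8%), and AT1G07170 and AT3G25840 matched IMA1 at 75%. AT4G27300 and AT2G41090 came next for IMA3, at 57.1% and 56.3%. PYE was nearest to PFK7, AT5G09225 and AT1G69080, each at 68.8%, and BTS to AT4G25315, AT1G15870 and AT1G80720, each at 80%. The RefSeq probe of FER1 was nearest to CYP96A8 at 84.6%, then APT3 and HPR at 78.6%. Its GenBank probe was nearest to AT5G24260 at 80%, AT2G44140 at 77.8% and ATG8F at 75%. BHLH101 was nearest to AT1G76020 at 70%, EXLA1 and OFP5 at 66.7%, and FRO3 to ATL6 at 66.7%, AT1G60060 and AT1G03620 at 60%. None of these nearest genes was shared between the 2 FER1 probes.

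Beyond the members, 55 genes of iron regulation, uptake, transport, storage and organelle iron were counted, of which 53 had a named probe. In Mt62 after 24 h of DETA, 4 of the 53 rose and 3 fell against the 24 h control, where 6.04% of all genes were listed. Those that rose were IMA2, another IMA peptide gene, which lies next to IMA1, at 2.13, ORG1, a gene known to respond to iron shortage, at 0.80, NAS4, a nicotianamine synthase, at 0.78, and NRAMP4, a vacuolar iron exporter, at 0.53. Those that fell were FER4, a ferritin of mitochondria and plastids, at -0.73, FSD1, an iron superoxide dismutase, at -0.70, and MIT1, a mitochondrial iron importer, at -0.36. The counts were 2 rising and 2 falling in C13 (7.88% of all genes listed) and 5 rising and 1 falling in WT (11.1%). NAS4 was listed in WT as well, at 0.86, and IMA2 was not listed in C13 or WT. Since IMA1 and IMA2 are close relatives, whether their probes can be told apart was not tested.

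None of the 14 genes of root iron uptake was listed in Mt62 after 24 h of DETA against the 24 h control. Among them are FIT, IRT1 and FRO2. In C13 and WT 1 each was listed. The share of all genes listed was 6.04% in Mt62, 7.88% in C13 and 11.1% in WT, and these counts are near it. Against 0 h, BGLU42, one of the 14, was higher in Mt62, at 0.59. None of the 8 upstream regulators and ligases, which include ILR3 and URI, was listed in any line after DETA of either time against the control of that time. In those comparisons 6.04% to 11.7% of all genes were listed, so 0 of 8 in any 1 of them is near the share. Of the 4 root markers with a named probe, 0 were listed in Mt62 after 24 h of DETA, also near the share of all genes. PYK10 was listed in WT, at 1.00. Root markers also moved after 24 h of hypoxia, with AKT1 at 0.75 in C13 and 0.58 in WT, and PYK10 at -1.79 in Mt62 and -1.17 in WT. After 2 h of DETA AKT1 was at 0.69 in Mt62 and 0.47 in C13. No root marker was listed after 2 h of hypoxia against the 2 h control. The part of root markers in the hypoxia and DETA values of the members was not tested.

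**Figure D4:**
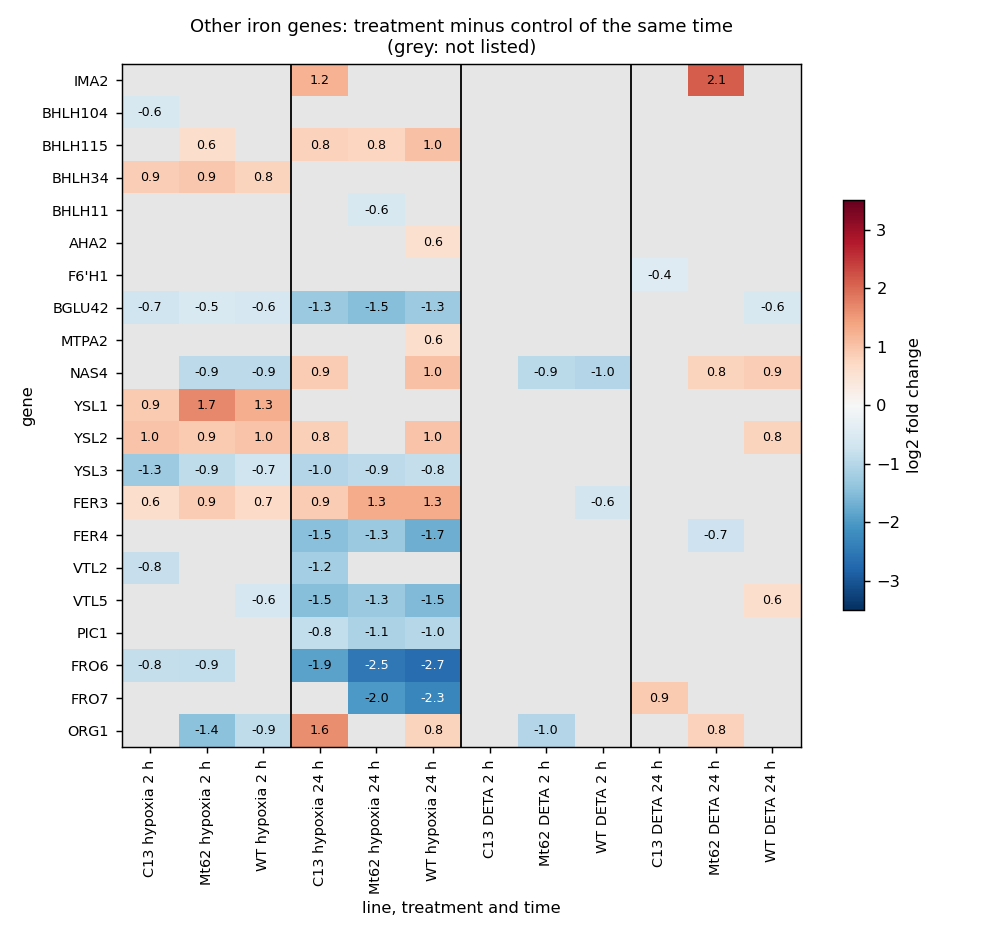
Listed log2 fold changes of the named genes of the other iron lists, each treatment minus the control of the same line and time, with grey for values that are not listed. Lines run C13, Mt62, WT within each treatment and time; IMA2 in Mt62 DETA 24 h stands at 2.13 and FRO6 in WT hypoxia 24 h at -2.68.

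After 24 h of hypoxia, 8 of the 53 rose and 11 fell in C13, 5 rose and 13 fell in Mt62, and 11 rose and 10 fell in WT. The share of all genes listed was 34.6%, 30.9% and 35.8% in the same order of lines, and the counts are close to it. The ferritins split: FER3, a plastid ferritin, rose by 0.90, 1.29 and 1.31 in C13, Mt62 and WT, while FER4 was at -1.47, -1.30 and -1.71. FRO6, a ferric reductase of the cell surface in leaves, was at -1.88, -2.50 and -2.68, and FRO7, the plastid ferric reductase, was at -2.02 in Mt62 and -2.29 in WT. VTL5, a member of the vacuolar iron transporter-like family, was at -1.49, -1.31 and -1.54. BHLH115, one of the factors upstream of the subgroup Ib genes, rose in all 3 lines, as the plot of the other iron genes shows.

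After 2 h of hypoxia, 8 rose and 7 fell in C13, 9 rose and 8 fell in Mt62, and 7 rose and 8 fell in WT. The share of all genes listed was 20.1%, 19.4% and 18.1% in the same order of lines. YSL1, a transporter of iron bound to nicotianamine, rose by 0.93, 1.68 and 1.28 in C13, Mt62 and WT. FSD1 rose by 0.84, 1.07 and 0.92, and FER3 by 0.62, 0.90 and 0.68, while MIT1 was at -0.80, -0.55 and -0.82. After 2 h of DETA, 1 rose and 0 fell in C13, 0 rose and 4 fell in Mt62, and 0 rose and 4 fell in WT. Of all genes, 8.65%, 11.4% and 11.7% were listed in the same order of lines. NAS4 was at -0.95 in Mt62 and -1.03 in WT.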

How the data were processed

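RNA of shoots was hybridised to Agilent arrays, 3 samples in 3 dyes per field, 81 channels on 27 fields of 7 slides, per the labels. The authors normalised by quantiles and an in-house ComBat and applied an empirical Bayes test, per the series' design text, and deposited log2 fold changes (base not stated, taken as log2), null above p of 0.01. Signal over background and per-channel values are not in the table used here, so no fit, dye or slide check was possible. Of 34558 rows, 60 are control spots. Of the other 34498, probes were named by accession (24536), symbol against TAIR10.1 (1810) or as given (20); 26366 have 1 gene, 0 several and 8132 none, and 1662 genes have several rows. A gene was called where its listed rows share a sign, with their mean as value.

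Columns are additive (largest loop residual 2.0e-09), so other differences were recovered. The smallest listed value of a row, scaled by channel numbers and divided by 2.58, bounds its standard error; values not listed lie under 2.66 bounds. In 4411 of 4472 rows (98.6%) listed and recovered values were ordered as this needs. The p-values used 60 degrees of freedom and Benjamini-Hochberg at 0.05. Replicates are called biological in the design text, with no more on their growth. Python 3.11.15, numpy 2.4.6, pandas 2.3.3 and scipy 1.17.1 were used, with the steps tested on simulated data. Members and lists were chosen with earlier results of these data known. All members are named; of each list, up to 4 genes with the largest mean size, and others (NRAMP4, FSD1, MIT1, IRT1, FRO2, FIT, ILR3, URI) after their values were seen; for members listed in at least 8 columns, the 3 nearest genes.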

Additional observations from a re-analysis of the deposited data

How the results depend on the processing

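No paired analysis was possible because the deposited table holds differences of group means with no replicate numbers, and leaving out a replicate could not be run for the same reason. No single-gene value that was listed under both settings changed sign, but the balance of members after 2 h of hypoxia turned with the control. Against the 0 h control, members higher and lower after 2 h of hypoxia were 4 and 1 in C13 and 3 and 1 in Mt62, with 3 higher in WT; after 2 h of DETA they were 3 and 1 in C13, 1 and 1 in Mt62 and 1 and 0 in WT, and 1 was lower in Mt62 after 24 h of DETA. With the adjusted p, after 2 h of hypoxia 1 was higher and 3 lower in C13 and 0 higher in WT, after 2 h of DETA 0 were lower in Mt62 and 0 in WT, after 24 h of DETA 0 were higher in WT, and 0 of the 4 Mt62 values against WT passed. Where every probe of a gene had to be listed, members lower after 2 h of hypoxia were 3 in C13 and 1 in WT, after 24 h of hypoxia 0 in C13, 0 in Mt62 and 1 in WT, and after 2 h of DETA 1 in WT; FER1 and BHLH101 are the genes with several probes. With 4 channels assumed in every group, all 7 counts of response differences stayed at 0. Of 47 single-gene values, 18 were no longer past the threshold against the 0 h control and 14 with the adjusted p. The 7 genes higher in Mt62 after 24 h of DETA were 8 against 0 h and 6 with the adjusted p. The number of channels per group, known from the sample descriptions alone, limits the precision of every value.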
